A study of Homo sapiens with 346 samples.

Results

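CDKN1A encodes p21, an inhibitor of cyclin-dependent kinases, and single live HCT-116 cells differed widely in its mRNA. The 91 live cells of the deposited table were ranked by their CDKN1A level in TPM, a share of all transcripts that is corrected for transcript length. The 30 cells with the highest level formed the CDKN1A-high group, the 30 with the lowest the CDKN1A-low group, and 31 cells lay between them. The groups thus hold 60 of the 91 live HCT-116 cells in the table, out of 346 labelled cells in the whole series. The study compared freshly processed live cells with cells kept for 1 week in 80% methanol, in HCT-116 and in a line labelled HepG2, by full-length Smart-seq2 sequencing of single cells sorted into wells. The live HCT-116 cells carried no added agent or engineered allele in the labels, and were grown in medium with serum, harvested before confluence and sorted as singlets without a dead-cell signal. They were made in 1 experiment and count as 1 sample, so no test between groups of cells was run, and no p-value or standard error is given. SDs are over cells and describe how far cells of a group spread.

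HCT-116, grown from a human colorectal carcinoma, keeps functional p53. After DNA damage or other stress, p53 is stabilised, binds sites near its target genes and switches them on. CDKN1A is the best known of these targets. Its protein holds back the kinases that drive cells through the cycle, so that RB-family proteins keep the genes for DNA synthesis and mitosis repressed, and cultures of dividing cells hold some that have left the cycle with p21 high.

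The cells were chosen by their measured CDKN1A level, so CDKN1A itself and every gene compared between these groups are given as a description only. In the high group they ran from 64.4 TPM to 1441 TPM with a median of 188.8 TPM, in the middle cells from 14.5 to 61.7 TPM with a median of 26.6 TPM, and in the low group from 0 to 12.2 TPM with a median of 6.33 TPM. In 4 cells of the low group the gene was listed at 0. The 3 lowest cells of the high group stood at 64.4, 77.3 and 98.4 TPM and the 3 cells just outside it at 60.7, 61.1 and 61.7 TPM. At the lower edge, the last 3 cells inside stood at 10.8, 12.2 and 12.2 TPM and the next 3 at 14.5, 15.2 and 18.2 TPM. There is a gap of a few TPM at each edge, not a break between separate populations. Behind these levels lay 180 to 8122 estimated CDKN1A reads per high cell, with a median of 861.5, and 0 to 72 per low cell, with a median of 21.5. Ranking on the transcript table in place of the gene table kept 29 of the 30 high cells and all 30 low cells.

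The groups were alike in most measures of library quality, but not in all. Total reads, taken from the step between values in the transcript table, ran from about 700000 to 5300000 per live cell, with a median of 2700000 in the high and 2450000 in the low group. The number of genes above 0 TPM had a median of 12275.5 in the high and 11748.5 in the low group, and ranged from 10319 to 13640 and from 10098 to 13551. Over the 91 cells, CDKN1A had a Spearman rho of 0.25 with the number of genes detected, of 0.16 with total reads, of -0.14 with the share of TPM in ribosomal RNA and of -0.23 with the share of reads assigned. The median share in ribosomal RNA was 24% in the high and 25.5% in the low group, and that of assigned reads 87.5% and 88.7%. Values with the number of genes detected regressed out, and in cells paired on it, are given with the alternative settings. No live HCT-116 column equalled another or a fixed one, and the highest correlation between a pair of live cells was 0.914 on the log2 scale. The cells carried the epithelial genes of their label, with EPCAM at a mean of 306 TPM and KRT8 at 1902 TPM, both above 1 TPM in 91 of 91 cells. CDX2, an intestinal transcription factor, was above 1 TPM in 73 cells and CDH17, an intestinal cadherin, in 1. Of the markers of the cells labelled HepG2, ESR1 had a mean of 0.925 TPM in these cells and was above 1 TPM in 40 of them. GATA3 had a mean of 0.278 TPM and was above 1 TPM in 9 cells, and APOA1 was so in 10. Of the blood and stromal markers, PTPRC was above 1 TPM in 4 cells, PECAM1 in 11 and COL3A1 in 1. CD68 (mean 3.97 TPM) and COL1A1 (mean 1.17 TPM) were above 1 TPM in 38 cells each.

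The sequence that ties CDKN1A to p53 is short: the p53 site, a pair of half-sites of 10 bases. It is shown for CDKN1A and for 4 listed targets that were at least 1 higher in CDKN1A-high cells and hold a close match. Most listed targets held none in the windows searched. Windows of 3 kb on each side of the start of every protein-coding gene (GENCODE starts on hg38) were searched. A hit was a pair of adjoining half-sites with at most 1 mismatch, in which the core C and G of each half-site matched. The motif reads the same on both strands. Capitals mark the 20 bases of the site, lower case the 5 bases on each side, and each line is written 5′ to 3′ on the strand of its gene.
CDKN1A: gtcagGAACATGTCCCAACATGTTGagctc
PLK2: atgagAAACATGCCTGGACTTGCCCtgcac
GDF15: gcctcAGACCTGCCCGGACATGTCCaagtc
GADD45A: gtacaGAACATGTCTAAGCATGCTGgggac
DDB2: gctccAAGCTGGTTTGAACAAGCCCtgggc
The CDKN1A stretch lies at chr6:36676444-36676473 on the plus strand, spans the start of the longest annotated gene model and reaches into a non-coding exon. It has 2 mismatches to the motif and is the closest match in its window among pairs with the core C and G intact. That of PLK2, at chr5:58462269-58462298 on the minus strand, lies upstream of the gene and has 0 mismatches. Those of GDF15 (chr19:18373942-18373971, upstream of the gene), GADD45A (chr1:67686770-67686799, intron) and DDB2 (chr11:47214964-47214993, non-coding part of an exon), all on the plus strand, have 1. Such a site was present in 7 of the 68 listed p53 targets described below (10.3%), against 0.579% of all 20020 protein-coding genes. Among the listed targets at least 1 higher in CDKN1A-high cells it was in 5 of 21, and among the other listed targets in 2 of 47. The site of 1 of the 5 and those of the 2 are not shown. A match describes the sequence and does not show that p53 binds there.

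Across all genes, the groups differed in few. Of the 28806 genes listed, the 11805 with a mean of at least 1 TPM over all live cells were described, leaving out CDKN1A, by the difference between the means of log2(TPM + 1) in high and low cells. The difference was at least 1 in favour of the high group for 109 genes (0.923% of those described) and in favour of the low group for 1.16%. It exceeded the pooled SD over cells in 35 genes higher (0.296%) and 34 lower (0.288%), and the median SD was 1.08. Of these 35 and 34 genes, 35 and 13 stayed past the SD after rescaling by the median ratio. With the means of the S phase and G2/M lists regressed out 26 and 14 did, and with 45 cells per group 7 and 1. With the number of genes detected regressed out 26 and 32 did, and in cells paired on it 31 and 34. The median difference of all described genes was -0.07, with 41.6% of them higher in the high group. Of the 109 genes, 11 had a mean below 1 TPM in the low group and passed the filter only through cells with more, as 6 of the 35 did.

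**Figure D1:**
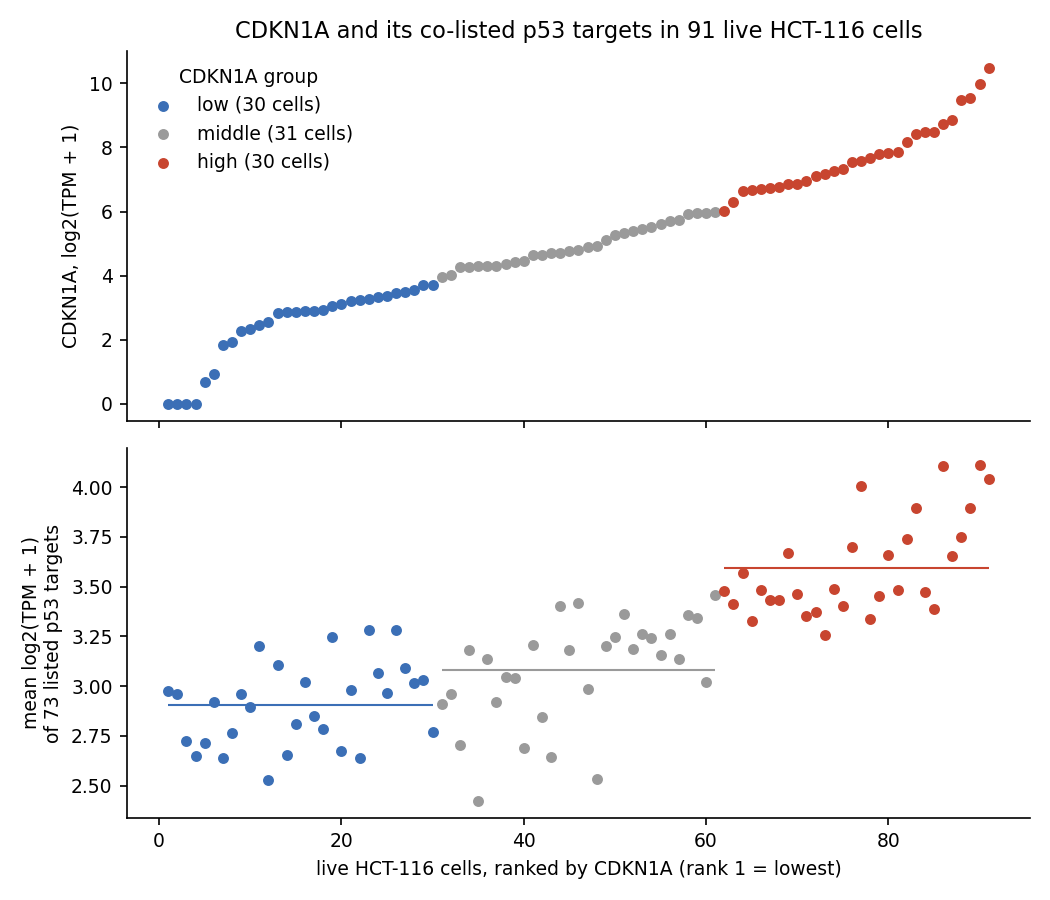
CDKN1A in log2(TPM + 1) (top) and the mean log2(TPM + 1) of 73 listed p53 targets without CDKN1A (bottom) against the rank of 91 live HCT-116 cells by CDKN1A, with 1 point per cell and lines at group means. The means of the targets were 2.91 in the 30 low cells, 3.08 in the 31 middle cells and 3.59 in the 30 high cells.

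Among the genes that went with CDKN1A from cell to cell were many further p53 targets. Of 73 targets listed in 4 groups, 68 passed the filter, 61 of these were higher in CDKN1A-high cells, 21 by at least 1 and 18 by more than the SD over cells, and none was lower by either measure. The count of 18 was 6 with 45 cells per group and 23 after rescaling by the median ratio. With the number of genes detected regressed out it was 13, and in cells paired on that number 20. The median difference of the described targets, 0.59 as reported, was 0.49 and 0.52 in these 2 settings. Beside the background of 0.923% for all genes, 30.9% of the described targets were at least 1 higher. Since some members could pass the filter through the high group alone, the count over all 73 is given too: 64 were higher, 8 lower and 1 equal, with a median difference of 0.55. Their mean log2(TPM + 1) in a cell ran from 3.26 to 4.11 in the high group and from 2.53 to 3.28 in the low group. Thus 29 of the 30 high cells lay above the highest low cell, and the groups overlapped in only a narrow range, which the plot of cells by rank shows. The Spearman rho of this mean with CDKN1A was 0.83 over the 91 cells, and 0.56 within the high (0.23 without its 6 highest cells), 0.58 within the middle and 0.40 within the low cells, in libraries that come from 1 experiment and differ in depth. The same mean had a rho of 0.43 with the number of genes detected, and of 0.03 within the high, 0.61 within the middle and 0.67 within the low cells.

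The targets that stop the cycle or feed back on p53 had the largest group median, 1.14, with 15 of 15 described members higher, 8 by at least 1 and 6 by more than the SD. RPS27L, a ribosomal protein-like p53 target, ran from 82.7 to 376 TPM in the high cells with a median of 202, and from 33.8 to 221 TPM in the low cells with a median of 85.3. Nearly all high cells, 29 of 30, lay above the low median, yet the ranges overlapped. Its difference of 1.23 (pooled SD 0.66) was the largest of all described genes relative to the SD, and its rho of 0.62 with CDKN1A was the highest. BTG2, an antiproliferative gene, had medians of 18.2 TPM in the high and 0.829 TPM in the low group, was listed at 0 in 2 high and 15 low cells, and differed by 2.54 (SD 1.58). TRIAP1, a small inhibitor of apoptosis, and PPM1D, the phosphatase that turns p53 signalling down, both differed by 1.14, with SDs of 0.79 and 0.86. PPM1D went from a median of 6.28 TPM in the low cells to 14.5 TPM in the high cells. MDM2, the ubiquitin ligase that degrades p53, stood lower in this order: its medians were 7.37 and 5.17 TPM, its difference of 0.55 was within the SD of 0.82, and 23 of 30 high cells were above the low median. CCNG1, the gene of cyclin G1, differed by 0.65 (SD 0.66).

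**Figure D2:**
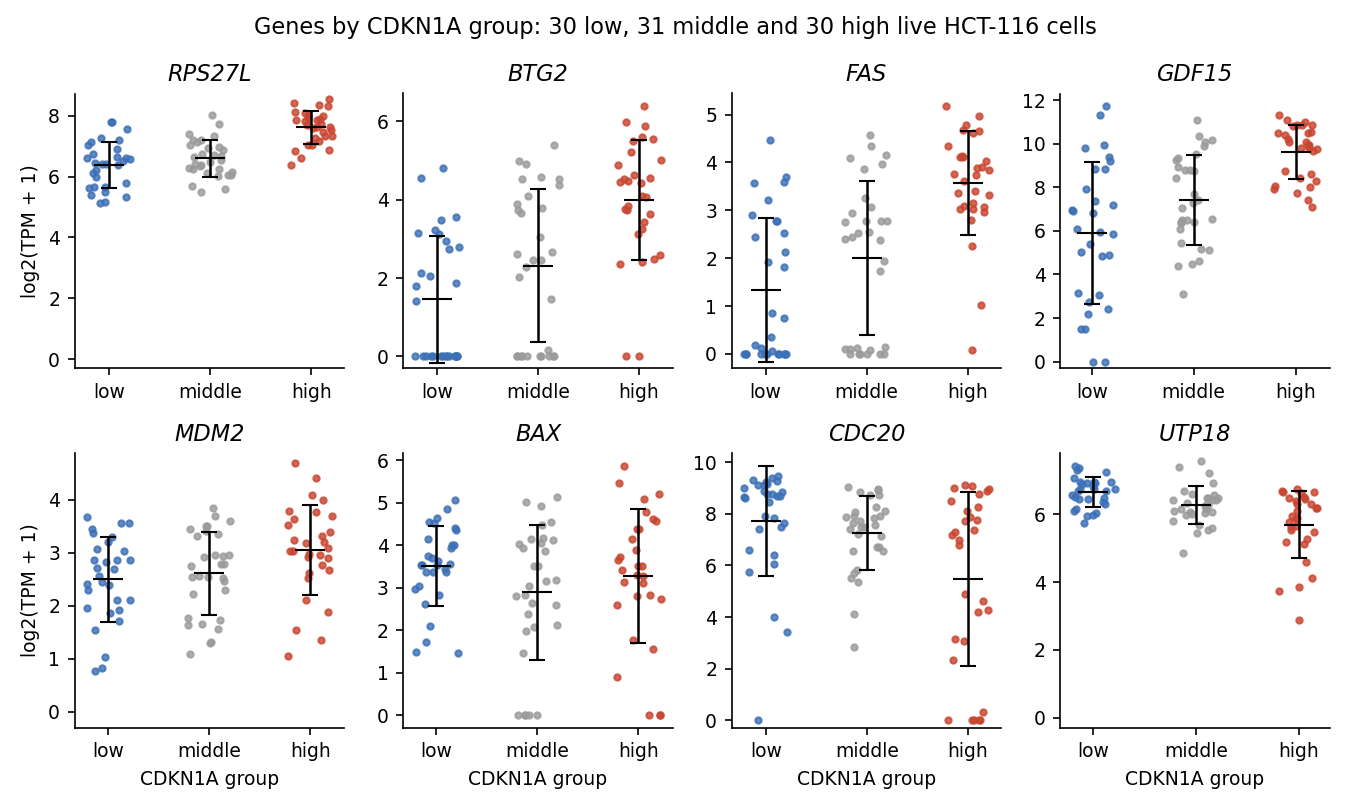
Log2(TPM + 1) of 8 genes in single live HCT-116 cells of the CDKN1A-low (30), middle (31) and high (30) groups, with bars for the mean and SD over cells. RPS27L, BTG2, FAS and GDF15 were higher in the high group by more than the SD, MDM2 and BAX were not, and CDC20 and UTP18 were lower, CDC20 within its SD.

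In the cell death group, 14 of 16 described members were higher, 5 by at least 1 and 5, not all the same genes, by more than the SD, with a median of 0.68. FAS, a death receptor, ran from 0.063 to 35.1 TPM in the high cells with a median of 12.4, and from 0 to 21.3 TPM in the low cells with a median of 0.474. It was listed at 0 in 11 low cells and in none of the high cells, and 29 of 30 high cells lay above the low median. The difference was 2.23 (SD 1.31). TNFRSF10B, a receptor for the death ligand TRAIL, differed by 0.86 (SD 0.61), TP53INP1, a stress-induced regulator of autophagy and death, by 1.43 (SD 0.98) and CYFIP2 by 1.33 (SD 1.18). TP53INP1 was a gene of few transcripts, at a median of 1.83 TPM in the high cells and at 0 in 24 of the 30 low cells. Not all death genes followed: BAX, which perforates the mitochondrial outer membrane, had medians of 10.1 TPM in the high and 10.7 TPM in the low group and a difference of -0.24 (SD 1.30). TP53I3, an oxidoreductase gene, had medians of 14 and 6.33 TPM and a difference of 0.98, within its wide SD of 1.82.

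All 14 DNA repair and metabolism targets were higher, 6 by at least 1 and 5 by more than the SD, with a median of 0.93. SESN1, the sestrin that restrains mTORC1, had medians of 9.77 TPM in the high and 1.08 TPM in the low group and was listed at 0 in 3 high and 14 low cells. Of the 30 high cells, 15 exceeded the highest low cell, which stood at 8.75 TPM, and the difference was 1.94 (SD 1.42). XPC, which recognises damaged DNA in nucleotide excision repair, differed by 1.18 (SD 0.99), FDXR, a mitochondrial reductase, by 1.18 (SD 1.12) and RRM2B, the p53-induced subunit of ribonucleotide reductase, by 1.00 (SD 0.86).

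Of the signalling and other targets, 18 of 23 described members were higher, 2 by at least 1, with a median of 0.15. GDF15, a secreted stress cytokine, nevertheless had the largest difference of any listed target, 3.72 (SD 2.47). It ran from 136.5 to 2546 TPM in the high cells with a median of 987, and from 0 to 3361 TPM in the low cells with a median of 63.7. All 30 high cells were above the low median, while the highest cell of all was a low one. SERPINB5, the serpin maspin, differed by 1.78 (SD 1.52), with medians of 17.3 and 5.77 TPM. The adaptor TRAF4 (0.83, SD 0.84) and PHPT1, a phosphohistidine phosphatase (0.42, SD 0.46), came just short of their SDs.

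The regulators of the pathway did not follow CDKN1A as a group. Of 12 described genes for p53 and its regulators, 5 were higher and 7 lower, with a median of -0.19. The DNA damage kinase gene CHEK1, whose mRNA is high in S and G2 phase, differed by -1.10 (SD 1.48), ATR by -0.48 (SD 0.80), the deubiquitinase gene USP7 by -0.44 (SD 0.80) and PPP1R13L, an inhibitor of p53, by 0.43 (SD 0.76). Transcription factors known to act on CDKN1A had a median of 0.03 over 18 described members, with 10 higher and none at 1 or more. Among them FOXO3 (-0.39), MYC (-0.65), STAT3 (0.37) and SMAD4 (0.35) were all within their SDs. Neither did the 6 described genes beside CDKN1A on chromosome 6 share its pattern, with 1 higher, a median of -0.17, and SRSF3, a splicing factor gene, at -0.53 (SD 0.80), KCTD20 at -0.46, PPIL1 at -0.29 and STK38 at 0.24.

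Nor were other CDK inhibitors higher as a group beside p21. The 6 described ones split evenly, and CDKN2B (0.33), CDKN2A (-0.21) and CDKN1C (-0.15) were within their SDs. CDKN3, a phosphatase gene that is itself expressed in mitosis, differed by -1.68 (SD 2.52), with medians of 36.8 TPM in the high and 93.9 TPM in the low group. G1 cyclins and CDKs had 7 of 9 described members lower and a median of -0.39, with CDK7 at -0.49, CCNH at -0.60, CDK4 at -0.39 and CDK2 at -0.94, each within its SD. Of 19 RB, E2F and DREAM regulators 13 were lower, with a median of -0.23, and the members farthest from 0 relative to the SD were E2F5 at 0.77 (SD 1.08), E2F3 at -0.69, LIN9 at -0.69 and E2F6 at -0.64.

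Genes of the cell cycle were mostly lower in the high group, with a wide spread over cells. Of 54 G2/M genes, 49 were lower, 21 by at least 1 against a background of 1.16%, and 1 by more than the SD, with a median of -0.88. The count of 21 was 7 with 45 cells per group, 1 with the S and G2/M means regressed out, and 40 in cells paired on genes detected. The median was -0.48 with 45 cells per group, -0.49 on the log2 ratio of mean TPM and -1.48 in the paired cells. Of 42 described S phase genes, 37 were lower, 8 by at least 1 and none by more than the SD, with a median of -0.58, which was -0.14 on the log2 ratio of mean TPM. CDC20, the activator of the anaphase-promoting complex, ran from 0 to 549 TPM in the high cells with a median of 134.6, and from 0 to 716 TPM in the low cells with a median of 407. The ranges overlapped, with the highest cell a low one, the gene being listed at 0 in 5 high cells and 1 low cell, and the difference of -2.25 was within the SD of 2.82. CCNB2, a mitotic cyclin gene, differed by -1.98 (SD 2.5), and TMPO, a nuclear lamina gene, by -1.14 (SD 1.38). ANP32E, a histone chaperone gene, was the G2/M member past its SD, at -0.97 (SD 0.90), with medians of 39.3 and 64.8 TPM. Among S phase genes, MCM2 (-1.53, SD 2.06) and MCM5 (-1.15, SD 1.75), subunits of the replicative helicase, CDCA7 (-1.28, SD 1.36) and the histone chaperone gene NASP (-0.84, SD 1.14) stood out. At 10 TPM or more, CDC20 was found in 21 of 30 high, 30 of 31 middle and 28 of 30 low cells, and MCM2 in 17, 31 and 27. CCNB2 (18, 30 and 28), BIRC5 (19, 28 and 27), CDC45 (13, 25 and 23) and TOP2A (16, 20 and 18) had the same order of high below low and low below middle, while MKI67 was found in 10, 7 and 13 and CENPF in 15, 13 and 18.

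These averages came from a mixture of cells. In the plot of cell cycle means, 12 of the 30 high cells, 1 of the 31 middle cells and 3 of the 30 low cells had a mean log2(TPM + 1) below 2.5 for both the S phase and the G2/M list, a boundary drawn after seeing the values. With a boundary of 2 the counts were 8, 1 and 2, and with a boundary of 3 they were 13, 2 and 4. The highest cycle means of single cells were 5.84 for S phase and 6.4 for G2/M in the high and 5.75 and 6.90 in the low group. The 6 cells with the most CDKN1A, from 427 to 1441 TPM, all had a G2/M mean between 1.39 and 2.08, and 5 of them had both means below 2.5. Their p53 target means, from 3.66 to 4.11, were in the upper part of the high group. Over the 91 cells the S phase mean had a rho of -0.11 and the G2/M mean of -0.19 with CDKN1A, and within the high group -0.32 and -0.45, or -0.06 and -0.20 without its 6 highest cells. Within the middle cells these were 0.14 and 0.21, and within the low cells 0.09 and 0.26. The middle cells had the highest S phase mean, 4.73 ± 1.01 (SD over 31 cells), against 3.59 ± 1.65 in the high and 4.19 ± 1.03 in the low group.

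**Figure D3:**
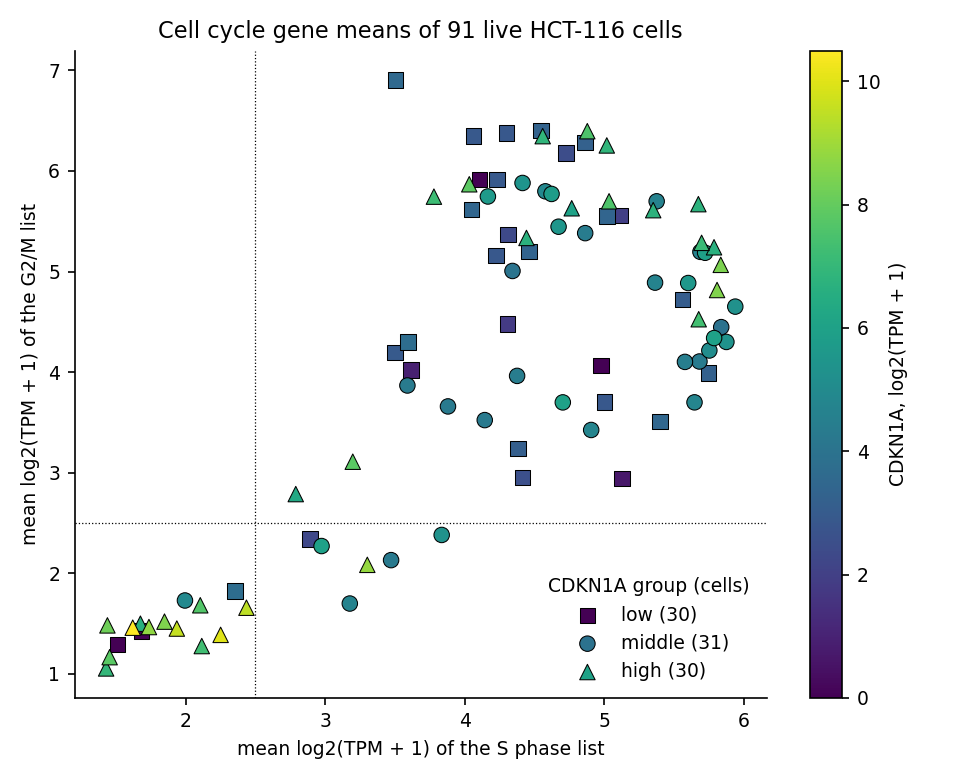
Mean log2(TPM + 1) of the G2/M list against that of the S phase list in 91 live HCT-116 cells, with 1 symbol per cell, shape for the CDKN1A group and colour for CDKN1A in log2(TPM + 1). Dotted lines stand at 2.5, and 12 high, 1 middle and 3 low cells lie below both.

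The G2/M genes share promoter sequence that was not used to choose the cells. RefSeq promoter windows (GRCh38.p14, 250 bases before to 50 after a start) were matched to 44 of the 54 genes, and the letters TTTGAA, the cell cycle genes homology region (CHR) bound by repressor and activator complexes of mitotic genes, or their reverse complement were in 32 of these (72.7%). The share among all 27305 genes with a window was 18.2%. CCAAT on either strand, the NF-Y motif, was in 31 of 44 (70.5%) against 39.7% of all genes, and both motifs together were in 25 (56.8%) against 7.26%. The letters of the motifs can share at most 1 base. Windows were found for 31 of 42 S phase genes, below the 80% required, and for these no share is given. Neither motif is therefore called particular to the G2/M genes. The 130 bases before the start are shown for CDC20 and CCNB2, the pair of G2/M genes with the largest difference, with CHR and CCAAT motifs in capitals, 5′ to 3′ on the plus strand.
CDC20: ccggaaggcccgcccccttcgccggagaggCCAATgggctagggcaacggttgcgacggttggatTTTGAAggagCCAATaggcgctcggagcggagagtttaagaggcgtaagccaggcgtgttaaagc
CCNB2: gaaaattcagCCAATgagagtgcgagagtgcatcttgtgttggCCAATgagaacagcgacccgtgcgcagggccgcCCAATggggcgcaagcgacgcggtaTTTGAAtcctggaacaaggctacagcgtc
The CDC20 stretch, at chr1:43358851-43358980, holds 1 CHR and 2 CCAAT motifs, and that of CCNB2, at chr15:59105016-59105145, holds 1 and 3. Of the 47 ribosome biogenesis factors with a window, 7 (14.9%) held TTTGAA, and of the 57 p53 targets 6 (10.5%). CCAAT was in 21 (44.7%) of these ribosome biogenesis factors and in 25 (43.9%) of these p53 targets.

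The 10 genes most lower in the high group relative to the SD were NAA15, PGAM1, UTP18, SLC38A1, ANP32B, NMD3, CTU2, HNRNPDL, IMP4 and RPL18. NAA15, a subunit of the main N-terminal acetyltransferase, ran from 6.42 to 40.8 TPM in the high cells with a median of 21.5, and from 18.4 to 51.5 TPM in the low cells with a median of 37.2. A single high cell lay above the low median, the difference was -0.71 (SD 0.50), and the rho of -0.52 with CDKN1A was the lowest of all described genes. UTP18, of the complex that processes the small ribosomal subunit, had medians of 59.1 and 104.2 TPM and a difference of -0.96 (SD 0.77). PGAM1, a glycolytic enzyme, differed by -0.61 (SD 0.47), SLC38A1, a glutamine transporter, by -0.78 (SD 0.64), the histone chaperone gene ANP32B by -0.97 (SD 0.82), CTU2, of tRNA thiolation, by -0.75 (SD 0.64) and the RNA-binding protein gene HNRNPDL by -0.94 (SD 0.81). NMD3, the export adaptor of the large subunit, differed by -0.52 (SD 0.45), and IMP4, of the U3 snoRNP, by -0.82 (SD 0.71). The nucleolar gene CCDC86 had one of the lowest correlations, with a rho of -0.47.

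A list of 55 ribosome biogenesis factors, drawn up after these genes had been seen, had 54 members lower in the high group, 2 by at least 1 (background 1.16%) and 9 by more than the SD (background 0.288%), with a median of -0.51, and FBL, the methyltransferase of ribosomal RNA, at -0.51 (SD 0.46). It supports nothing beyond the genes that prompted it. The mean of the list in a cell had a rho of -0.45 with CDKN1A and was 5.18 ± 0.47 (SD) in the high, 5.44 ± 0.44 in the middle and 5.68 ± 0.36 in the low group. The 77 ribosomal protein genes had a median of -0.07, as all genes had, and turned to 0.10 when cells were rescaled by the median ratio, which moved the median of all described genes from -0.07 to 0.03. RPL18 (-0.24, SD 0.21) was past its SD, unlike RPL15 at -0.22 and RPL29 at -0.19.

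**Figure D4:**
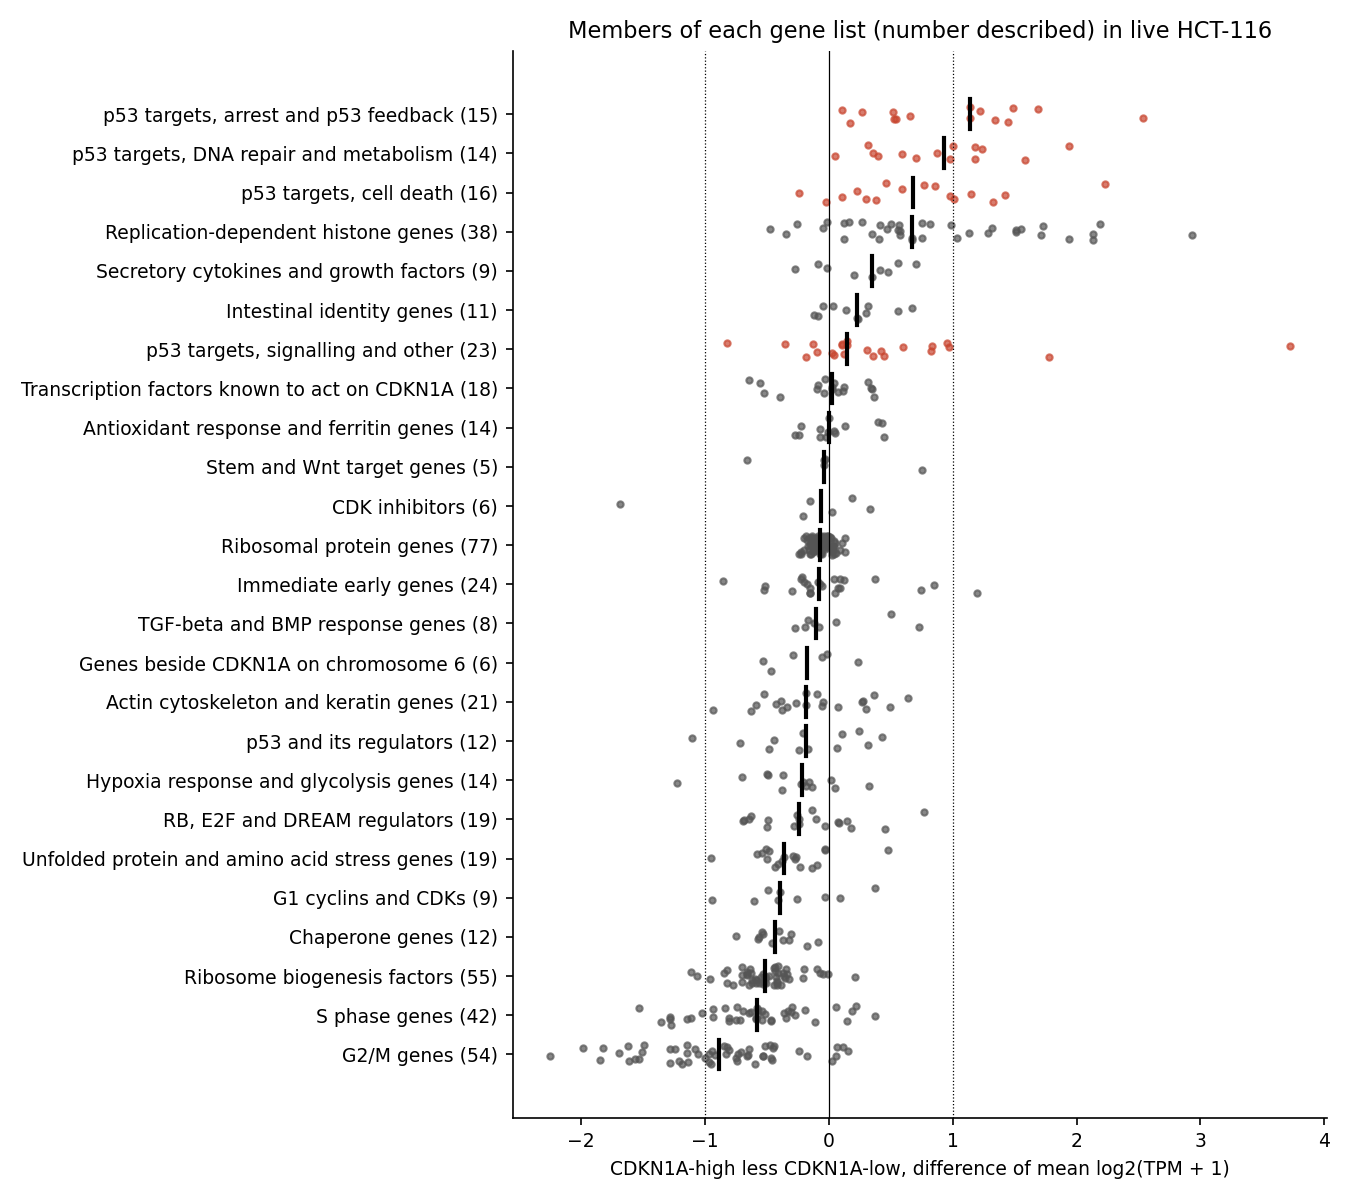
Difference of mean log2(TPM + 1) between CDKN1A-high and CDKN1A-low live HCT-116 cells for every described member of the lists with at least 5, 1 point per gene, with bars at list medians and dotted lines at -1 and 1. p53 targets are in red, with medians from 0.15 to 1.14, and the G2/M list at the bottom has a median of -0.88.

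Replication-dependent histone genes, also made into a list after the values were seen, were mostly higher. Of 56 listed, 38 passed the filter, 33 of these were higher, 14 by at least 1 (background 0.923%) and 3 by more than the SD (background 0.296%), with a median of 0.67. These counts take identical copies as separate genes. With no filter on low values the median was 0.41. Most histone mRNA made in S phase lacks a poly(A) tail, and these libraries are primed on poly(A) but also hold ribosomal RNA, so which forms the levels stand for was not tested. HIST1H2AC had a median of 19.6 TPM in the high group and was listed at 0 in 22 of 30 low cells and 9 of 30 high cells, with a difference of 2.93 (SD 2.44). HIST2H2AA3 and HIST2H2AA4 are near-identical copies with the same value in all 91 cells, so their difference of 2.13 (SD 1.86) is 1 measurement, and the 3 genes past the SD are 2 separate values. HIST1H3H differed by 1.71 (SD 1.74). Reads could be split between members of this family.

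Chaperone genes were lower in 12 of 12, none by 1, with a median of -0.43 and HSPD1 at -0.40, HSP90AA1 at -0.54, HSP90AB1 at -0.32 and HSPE1 at -0.56, each within its SD. Their median was -0.23 with 45 cells per group, -0.27 with the S and G2/M means regressed out and -0.61 in cells paired on genes detected. Unfolded protein and amino acid stress genes were lower in 18 of 19, with a median of -0.36, among them PHGDH, of serine synthesis, at -0.95 (SD 1.44), PPP1R15A at -0.53, SDF2L1 at -0.58 and CEBPG at -0.50. Of 14 hypoxia response and glycolysis genes 11 were lower, with a median of -0.22, LDHA at -0.50 (SD 0.71), ENO1 at -0.22, PFKFB4 at -0.70 and ANKRD37 at -1.23 (SD 2.37). Actin and keratin genes had a median of -0.18 over 21, with ACTG1, a cytoplasmic actin gene, at -0.94 and just past its SD of 0.93, ACTB at -0.63 (SD 0.68) and TPM4 at -0.39 lower and S100A11 at 0.37 higher. ACTG1 had medians of 2516 TPM in the high and 4563 TPM in the low group.

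The remaining lists had no member past its SD. Of 22 listed cytokines and growth factors of the secretory programme of arrested cells, 9 were described and 6 higher, with a median of 0.35, TIMP1 at 0.35, IGFBP6 at 0.41, AREG at 0.70 and CXCL1 at 0.48, all within their SDs. CXCL1 was at 0 in 25 of 30 high and 28 of 30 low cells. Its mean was 2.95 TPM in the high and 0.135 TPM in the low group, so it passed the filter through few cells. Intestinal identity genes had 8 of 11 described members higher and a median of 0.23. KRT19 had medians of 880 and 729 TPM and a difference of 0.56 (SD 0.88), and KRT20, a keratin of differentiated colon cells, was at 0 in 23 of 30 high and 29 of 30 low cells, with a difference of 0.67 (SD 1.28). KRT8 (0.23) and ANXA1 (0.32) were within their SDs. Antioxidant and ferritin genes had a median of 0.00 over 14, with the ferritin genes FTL at 0.40 (SD 0.53) and FTH1 at 0.45 (SD 0.94) and ME1 (-0.22) and NQO1 (-0.27) below 0. Immediate early genes had a median of -0.08 over 24 described members, 1 of them at least 1 higher: ATF3, also a stress-response factor, at 1.2 (SD 1.84). JUND (0.75), JUNB (0.85) and PHLDA2 (-0.51) were within their SDs. Of 8 described TGF-beta and BMP response genes 3 were higher, with a median of -0.10, ID3 at 0.73, ID1 at -0.27 and LTBP3 at -0.17, and of 5 stem and Wnt target genes 1 was, with a median of -0.04, SOX9 at 0.75, RNF43 at -0.66, and CD44 and TCF7 at -0.04. Among markers of other cells, XBP1 was the 1 described gene of the 13 for the cells labelled HepG2 (-0.51, SD 1.35), and COL1A1 (0.69, SD 0.81) and CD68 (-0.12, SD 1.66) were those of the 12 for blood and stroma, with summed levels of that list of 8.30 TPM in the high and 5.45 TPM in the low group and CD68 the most abundant.

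The same measure was taken in cells that had no part in choosing these groups. Fixed HCT-116 cells came from the same suspension, were kept in methanol and formed another library batch, and the 30 highest and 30 lowest of 92 were compared: CDKN1A ran from 45.9 to 1540 TPM (median 80.1) in the first and from 0 to 8.34 TPM (median 3.0) in the second, with 11 cells at 0. There too CDKN1A chose the cells, and 1 sample allows no test. Of 66 described p53 targets 59 were higher, with a median of 0.56, where 48.2% of all 11617 described genes were higher. Of these targets 18 were at least 1 higher, against 1.13% of all genes. The mean of the listed targets in a cell ran from 2.05 to 4.55 in the high and from 2.09 to 3.08 in the low cells. Thus 18 of the 30 high cells lay above the highest low cell. Its rho with CDKN1A was 0.62 over the 92 cells, 0.53 within the high, 0.01 within the middle and 0.32 within the low cells. GDF15 differed by 2.48, BTG2 by 2.48, SESN1 by 2.74, FAS by 1.77, PPM1D by 1.77, RPS27L by 0.84, MDM2 by 0.60 and BAX by 0.24. Of the 109 genes at least 1 higher in live cells, 30 were so in fixed cells, which is 27.5% of the live and 22.9% of the fixed genes so called.

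Among the lower genes, in fixed cells 27 of 54 G2/M genes were lower, 1 by at least 1 (background 0.422%), with a median of -0.00, and 27 of 42 S phase genes were, with a median of -0.12, while CDC20 was at -1.0 and CCNB2 at -1.02. Of the genes at least 1 lower in live cells 11 were so in fixed cells, 8.03% of the live and 22.4% of the 49 fixed genes. Yet 10 of the 30 high fixed cells, 3 of 32 middle and 6 of 30 low ones had both cycle means below 2.5, as had 5 of the 6 with the most CDKN1A (356 to 1540 TPM). Ribosome biogenesis factors were lower in 39 of 55, with a median of -0.12, and replication-dependent histone genes higher in 33 of 35, with a median of 0.64. The difference between live and fixed cells was not tested, and library batch and treatment cannot be told apart.

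**Figure D5:**
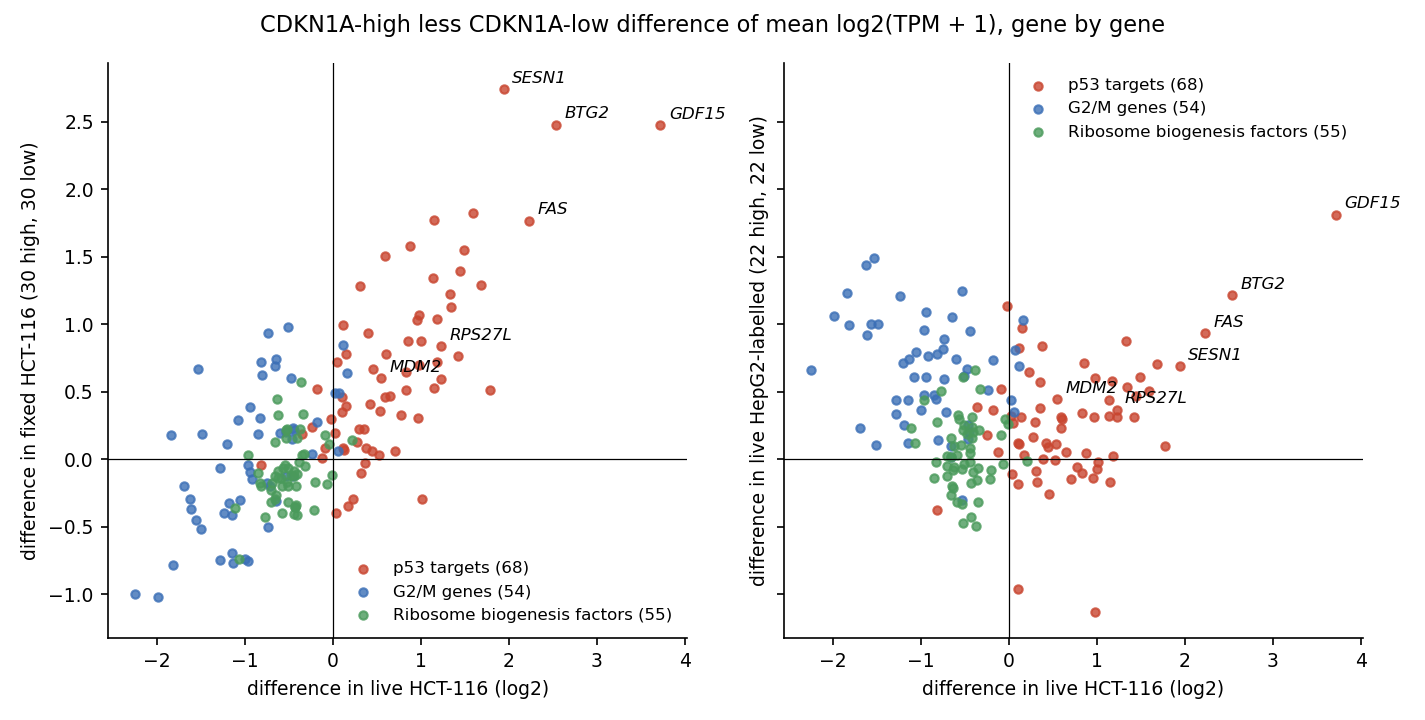
Difference of mean log2(TPM + 1) between CDKN1A-high and CDKN1A-low cells in fixed HCT-116 (left) and in live cells labelled HepG2 (right) against that in live HCT-116, 1 point per gene of 3 lists described in live HCT-116. p53 targets have medians of 0.56 in fixed and 0.31 in HepG2-labelled cells, and G2/M genes of -0.00 and 0.67.

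Live cells labelled HepG2 had less CDKN1A, and fewer listed p53 targets were at least 1 higher with it. By the paper's methods, the HepG2 work was done as 2 replicates, which the labels of the cells do not tell apart. Groups ranked by CDKN1A may therefore follow the replicate, which was not tested. Of the hepatocyte genes of that label, TTR was above 1 TPM in 1 of 68 cells, APOA1 in 2 and SERPINA1, at a mean of 2.27 TPM, in 19, while ESR1 and GATA3 were above 1 TPM in 68 of 68. Of the 68 columns, 1 in the low group equals a fixed column of the same line. The 22 cells with the most CDKN1A ran from 16.2 to 197 TPM (median 26.8) and the 22 with the least from 0 to 5.15 TPM (median 0.141). Of 66 described p53 targets 50 were higher, with a median of 0.31, where 61.9% of all 12551 described genes were higher. At least 1 higher were 3 targets, against 1.35% of all genes. At least 1 lower was 1 target, TP53I3 at -1.13, against 0.43% of all genes. Without that column 46 of 67 targets were higher, with a median of 0.20. GDF15 differed by 1.81 and BTG2 by 1.22, FAS by 0.93 and RPS27L by 0.37. The G2/M genes went the other way, with 53 of 54 higher and a median of 0.67, or 52 of 54 and 0.64 without the column. The median of all genes was 0.09 there and the median number of genes detected 13894.5 in the first and 13576.5 in the second group, and 11 G2/M genes were at least 1 higher and none at least 1 lower, against 1.35% and 0.43% of all genes. Both cycle means were below 2.5 in 3 of the 22 high, 1 of 24 middle and 5 of 22 low cells, and in 1 of the 6 with the most CDKN1A. Ribosome biogenesis factors were higher in 29 of 55, with a median of 0.02, or in 23 with a median of -0.05 without the column. Replication-dependent histone genes were lower in 32 of 50, 5 by at least 1, with a median of -0.17 (-0.26 without the column), and HIST1H2AC was at -1.08.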

How the data were processed

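The authors quantified reads with kallisto (0.46.0 in the submitters' processing notes) against GRCh38, summed transcripts to genes with tximport and kept cells with more than 4000 genes. They deposited TPM per gene for each cell. The transcript table, named TPM, holds CPM by its values, which the authors did not divide by length, and its steps gave the total reads per cell. Cells were sorted as singlets by the authors and no doublet caller was run. Column names give a group, and their numbers do not correspond to those in the titles, so columns were assigned to groups only.

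Differences are of means of log2(TPM + 1) (pseudocount 1) over genes with a mean TPM of at least 1, with ties in CDKN1A broken by column name. Genes are named by a rule: in each list the 4 with the largest difference relative to the SD, 8 fixed p53 targets, the 10 highest and 10 lowest of all genes relative to the SD, and the 5 highest and lowest rho; some genes that it names are not reported here. Named outside this rule were BIRC5, MKI67, TOP2A, CENPF and CDC45, counted at 10 TPM, and PLK2, GADD45A and DDB2, shown for their p53 sites. So were the cell markers and the genes in no list given at the end. Members, groups and lists were chosen with earlier results of these data known. Python 3.11.15, numpy 2.4.6, pandas 2.3.3, scipy 1.17.1 and matplotlib 3.10.9 were used, and the calculation was tested on simulated data. The simulated cells had a spread narrower than the median SD of the described genes and no undetected genes. The simulation therefore does not show how the thresholds behave in these cells.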

Additional observations from a re-analysis of the deposited data

How the results depend on the processing

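The medians of the p53 targets together ran from 0.49 to 0.85 and those of the ribosome biogenesis factors from -0.62 to -0.32 over the alternative settings run for them. The G2/M median of -0.88 was -0.05 with the S and G2/M means regressed out, which follows from the setting, -0.48 with 45 cells per group, -0.49 with the ratio of means, -1.34 with a pseudocount of 0.1 and -1.48 in paired cells. The S phase median was -1.0 with a pseudocount of 0.1 and -0.14 with the ratio of means. That of the signalling p53 targets, 0.15 as reported, ran from 0.12 without ribosomal RNA to 0.33 after rescaling by the median ratio. The histone median of 0.67 was 0.41 with no filter, 1.08 with a pseudocount of 0.1 and 1.21 with the ratio of means. The 21 G2/M genes at least 1 lower were also 36 with a pseudocount of 0.1, 35 with the number of genes detected regressed out and 32 with 20 cells per group. The 18 p53 targets past the SD were 6 with 45 cells per group and 13 with the number of genes detected regressed out. The share of all described genes past a threshold moved more. As reported, 0.923% were at least 1 higher and 1.16% at least 1 lower, and 0.296% were higher and 0.288% lower by over the SD. With a pseudocount of 0.1, 6.18% were at least 1 higher and 5.29% lower, and the median of the p53 targets was 0.85. With 20 cells per group, 1.88% and 2.39% were past 1, and 0.661% higher and 1.2% lower by over the SD. With 45 cells per group, 0.364% and 0.263% were past 1, and 0.0593% and 0.00847% past the SD, and the arrest and feedback targets had a median of 0.72. Rescaled by the median ratio, 0.483% were higher and 0.11% lower by over the SD, and the ribosomal protein median turned to 0.10. The log2 ratio of mean TPM put 2.64% at least 1 higher. With the number of genes detected regressed out, 1.84% were at least 1 lower and 0.686% lower by over the SD, and with 24 pairs of cells matched on it, 2.99% and 1.86%. With the S and G2/M means regressed out these were 0.271% and 0.127%, and the S phase median turned to 0.0043, which follows from the setting. Settings added after seeing the data gave 0.474% lower by over the SD with total reads regressed out, and 1.87% at least 1 lower and 0.584% by over the SD without the 4 low cells at 0. Where no construction is named, the cause was not tested.

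Among single genes, FAS (3.70), TP53INP1 (3.24) and CYSRT1 (3.11) moved by more than their SD with a pseudocount of 0.1, and CXCL1 (1.80) and KRT20 (2.72) with the ratio of means, while the other 1480 values stayed within it. For samples paired by number, no paired analysis was possible because the column numbers do not correspond to those in the sample titles and no result comes from a test. The pairs of cells above were matched on genes detected alone. Low levels rest on few reads, so a gene listed at 0 in a cell may be below its depth.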

Other observations

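Of the 35 genes higher by more than the SD over cells, 18 were listed p53 targets, 3 were histone genes, 2 of them copies with identical values, and 14 were in no list, named here after their values were seen. CYSRT1 had the largest difference of these relative to the SD, at 1.43 (SD 0.95), with medians of 2.13 TPM in the high and 0 TPM in the low group and 26 of 30 low cells at 0. ABHD4 differed by 1.5, ACTA2, a smooth muscle actin gene that lies next to FAS, by 1.67, DCP1B, of mRNA decapping, by 1.42, TRIM32 by 1.34, LACC1 by 1.18, ABCB9 by 1.15, PLEKHM1 by 0.92, FHL2 by 0.92, KBTBD3 by 0.87 and BLOC1S2 by 0.82, beside LOC107984150, MTMR9LP and CRHR1-IT1. In fixed HCT-116 cells, which had no part in choosing them, 13 of the 14 were described and 12 were higher, ACTA2 by 1.41 and ABHD4 by 1.28. Of all genes described in fixed cells 48.2% were higher.

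Of the 34 genes lower by more than the SD, 22 were in no list. In all 34 the mean of the middle cells stood between those of the high and the low group, as it did in 33 of the 35 higher genes. Both sets were chosen for a wide gap between the high and low means, and that choice alone favours a middle mean in between. The share of all described genes with this order is not given, and a graded relation was not tested.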
